A study of Mus musculus with 3 samples.

Results

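The suppressors of cytokine signalling (SOCS) form a family of 8 genes, Cish and Socs1 to Socs7. They were taken by gene identifier from the gene and transcript tables, and all 8 were found among the 55536 annotated genes. The tables describe RNA bound to chromatin, sequenced as total RNA after removal of ribosomal RNA, from macrophages grown from the bone marrow of C57BL/6J mice. These primary cells had received Lipid A, at 100 ng/ml, for the last 40 min of culture. Lipid A is the membrane anchor of lipopolysaccharide and the ligand of Toll-like receptor 4. There was 1 group of 3 biological replicates, and the RNA that entered library construction was 1 µg in replicate 1, 250 ng in replicate 2 and 500 ng in replicate 3. The labels name no genetic change, give no sex or age, and cite the same donor entry for all 3. P-values therefore rest on spread between these libraries only. Those of the level test below combine a gene's own spread with that of genes of like level. Untreated cells were not analysed here, so every level below is a level after Lipid A and not a response to it.

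SOCS proteins damp signalling from cytokine receptors. Cytokines activate Janus kinases (JAKs), which phosphorylate the receptor and the STAT transcription factors, and STATs then switch on several SOCS genes, which closes a negative feedback loop. Each SOCS protein binds phosphorylated tyrosine through an SH2 domain and, through its C-terminal SOCS box, recruits elongins B and C with a cullin to form an E3 ubiquitin ligase. In macrophages Socs1 and Socs3 are the best known members, Socs1 as a brake on interferon signalling and Socs3 as a brake on receptors that use gp130.

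The libraries held 12699813, 18280033 and 18087091 expected counts in replicates 1, 2 and 3. Macrophage markers were high, with a summed TPM (transcript abundance scaled for length and depth) of 755 to 854 over 10 genes. Among markers of other blood and stromal cells, the summed level was at most 13.9 TPM for any list but that of endothelium, at 46.6 to 53.1 TPM over 5 genes, of which 4 were called lower and Vwf higher. The neutrophil markers Ly6g and Elane had 0 counts in every library. In bulk RNA of this kind, fewer cells of a type and less RNA per cell cannot be told apart.

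Socs3 was by far the most abundant family member on chromatin, and the other 7 were each below the reference gene defined here in all 3 libraries. Each level was set against the reference gene, the median in the same library of the 8765 nuclear protein-coding genes that averaged 1 TPM or more, which stood at 7.56, 6.64 and 6.56 TPM in replicates 1, 2 and 3. A gene was called higher or lower when limma's treat test placed it more than 2-fold from that reference at an adjusted p under 0.05, over all 18445 genes tested. By this rule 1 of 8 members, Socs3, was called higher, and 15.1% of all genes tested were. Socs6, Socs1 and Socs2 were called lower, 3 of 8, against 52.5% of all genes tested. Socs4, Socs5, Socs7 and Cish received neither call. The SE given with a level below is limma's moderated SE, which combines the gene's own spread with that of genes of like level. The calls depend on the reference: with reference genes of at least 5 TPM, or with no 2-fold band, Cish, Socs4 and Socs7 were called lower too, 6 of 8 in all. With reference genes of at least 0.1 TPM, Socs5, Socs4 and Socs7 were above the reference, at 0.99, 0.20 and 0.18, without a call. The members' median was -1.10 on the log2 scale relative to the reference gene, and the median of all genes tested was -1.75.

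**Figure D1:**
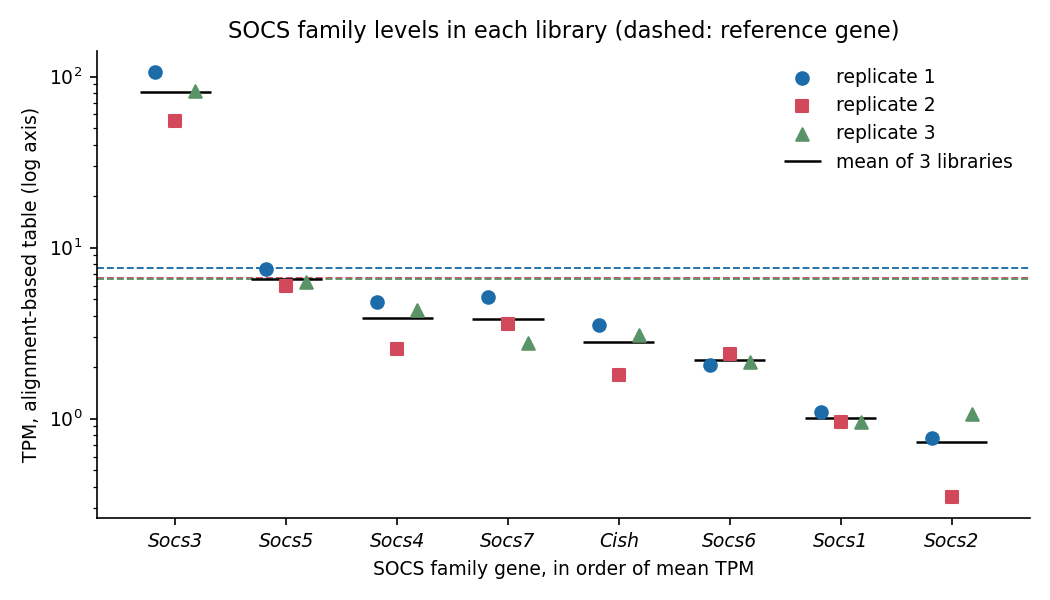
Level of each SOCS gene in each library, in TPM on a log axis, with the mean of the 3 libraries as a black bar and each library's reference gene as a dashed line of the same colour. Socs3 lies above the reference gene in all 3 libraries, at 54.8 to 106 TPM, and the other 7 genes lie between 0.35 and 7.50 TPM.

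Socs3 and Socs1 are the members with a kinase inhibitory region, a short stretch before the SH2 domain that blocks JAK activity directly. Socs3 (ENSMUSG00000053113.3, mm10 chr11:117966079-117970047, minus strand) stood at 106 TPM in replicate 1, 54.8 TPM in replicate 2 and 82.3 TPM in replicate 3. It rested on 3441, 2890 and 4031 counts, so counting error was small beside the spread between libraries. The level was high in every library and lowest in replicate 2. On the log2(TPM + 0.1) scale Socs3 was 3.48 ± 0.18 (moderated SE, n = 3) above the reference gene. Its adjusted p was 0.000244 by limma's treat test, and it was above the reference in 3 of 3 libraries.

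Socs1 (ENSMUSG00000038037.5, chr16:10782240-10785536, minus strand) was at the other end of the range. Its level was 1.10, 0.96 and 0.95 TPM in replicates 1, 2 and 3, from 41, 56 and 52 counts. All 3 libraries were under the reference gene. The difference was -2.67 ± 0.20 on the log2 scale (moderated SE, n = 3), with an adjusted p of 0.000522 by limma's treat test. The 95% exact Poisson interval of the smallest count, 41 in replicate 1, ran from 29.4 to 55.6, and such intervals cover counting error only.

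Cish and Socs2 are known for feedback on receptors that signal through STAT5, among them those of growth hormone, prolactin and erythropoietin. Cish (ENSMUSG00000032578.7, chr9:107296026-107302784, plus strand) was at 3.54, 1.79 and 3.08 TPM in replicates 1, 2 and 3, from 203, 163 and 258 counts. Replicate 2 was the low library, and all 3 were below the reference gene. The difference of -1.32 ± 0.22 (moderated SE, n = 3) did not pass the 2-fold test, with an adjusted p of 0.138 by limma's treat test. The annotation places Gm17040 and Gm17041 on the opposite strand within the Cish span, and no source used here says whether counting used the strand, so reads of Cish and of these genes cannot be told apart.

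Socs2 (ENSMUSG00000020027.18, chr10:95385362-95417180, minus strand) had the lowest mean level of the family. It was at 0.77, 0.35 and 1.06 TPM in replicates 1, 2 and 3, from only 12, 13 and 18 counts. The exact Poisson intervals of these counts, 6.20 to 20.96, 6.92 to 22.2 and 10.7 to 28.4, overlapped. Socs2 was -3.19 ± 0.33 (moderated SE, n = 3) relative to the reference gene, with an adjusted p of 0.00116 by limma's treat test.

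Socs4 and Socs5 carry a long N-terminal region and are known for acting on the epidermal growth factor receptor. Socs4 (ENSMUSG00000048379.9, chr14:47276931-47296102, plus strand) was at 4.79, 2.55 and 4.31 TPM in replicates 1, 2 and 3, again with replicate 2 as the low library. Its difference of -0.86 ± 0.21 (moderated SE, n = 3) had an adjusted p of 0.913 by limma's treat test. Socs5 (ENSMUSG00000037104.9, chr17:87107679-87137839, plus strand) was at 7.50, 5.93 and 6.33 TPM, within 0.07 log2 units of the reference gene on average. It was the second most abundant member, and its libraries rested on 328, 464 and 473 counts.

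Socs6 and Socs7 are linked to insulin receptor signalling. Socs6 (ENSMUSG00000056153.15, chr18:88665224-88927481, minus strand) had the longest gene span of the family, 262258 bases. The processed pseudogenes AC122398.2 and AC122398.3 on the same strand and AC118614.1 on the opposite strand overlap that span. The level of Socs6 was 2.05, 2.40 and 2.14 TPM in replicates 1, 2 and 3. It was -1.61 ± 0.18 (moderated SE, n = 3) relative to the reference gene, with an adjusted p of 0.0140 by limma's treat test. That call ended without replicate 3, with an adjusted p of 0.0647, and in the alignment-free table, where the difference was -0.51. Socs7 (ENSMUSG00000038485.5, chr11:97362551-97398542, plus strand) was at 5.13, 3.59 and 2.76 TPM. Its difference of -0.88 ± 0.19 (moderated SE, n = 3) had an adjusted p of 0.908 by limma's treat test.

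The order of mean levels was Socs3, Socs5, Socs4, Socs7, Cish, Socs6, Socs1 and Socs2. Neighbours were compared within each library as the difference of log2(TPM + 0.1). The pairs and their direction came from the means of these same libraries, so each mean difference is positive by construction. Socs3 was above Socs5 by 3.56 ± 0.33 (SD, n = 3), Socs5 above Socs4 by 0.79 ± 0.35 and Socs6 above Socs1 by 1.06 ± 0.20, each in 3 of 3 libraries and by more than the SD between libraries. The other 4 neighbour pairs did not differ beyond their spread. Socs4 and Socs7 were 0.02 ± 0.56 apart, Socs7 and Cish 0.45 ± 0.56, Cish and Socs6 0.29 ± 0.61, and Socs1 and Socs2 0.52 ± 0.69. With 3 libraries the two-sided exact sign-flip test cannot give a p below 0.25, and after Benjamini-Hochberg adjustment over the 7 pairs the smallest value was 0.583.

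The authors deposited 2 kinds of tables from the same reads, one derived from alignments to the transcriptome, used so far, and one derived directly from the reads and called alignment-free here. Socs3 led in both. In the alignment-free table it was at 99.1, 42.6 and 70.2 TPM in replicates 1, 2 and 3, again lowest in replicate 2, and was called higher, at 3.20 on the log2 scale with an adjusted p of 0.000421 by limma's treat test. Socs1 was lowest of the family there, at 1.03, 0.73 and 0.96 TPM, and was called lower with a difference of -2.86.

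Socs2 and Socs6 were the members on which the tables differed most. Socs2 was at 3.16, 1.47 and 2.91 TPM in replicates 1, 2 and 3 of the alignment-free table, a mean log2 ratio to the alignment-based TPM of 1.70 ± 0.28 (SD, n = 3). Its estimated counts there were 104, 137 and 154, between 8.56 and 10.5 times those of the alignment-based table. Over the 8765 genes that define the reference, the median of this log2 ratio was 0.46, the range from the 5th to the 95th percentile was -0.18 to 1.88, and 6.71% of genes had a ratio above that of Socs2. Socs6 was at 5.31, 5.0 and 4.67 TPM in the alignment-free table, a log2 ratio of 1.15 ± 0.16, which 16.4% of genes exceeded.

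Socs7 had a log2 ratio of 0.68 ± 0.14 (SD, n = 3), positive in 3 of 3 libraries. The ratios of the other 5 members lay between -0.23 for Socs3 and 0.20 for Socs4, all under the median of 0.46. The order of mean levels in the alignment-free table was Socs3, Socs5, Socs7, Socs6, Socs4, Cish, Socs2 and Socs1. Socs2 was above Socs1 there in 3 of 3 libraries, and Socs6 above Cish in 3 of 3. Socs2 was still called lower, at -1.54 with an adjusted p of 0.0272 by limma's treat test.

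**Figure D2:**
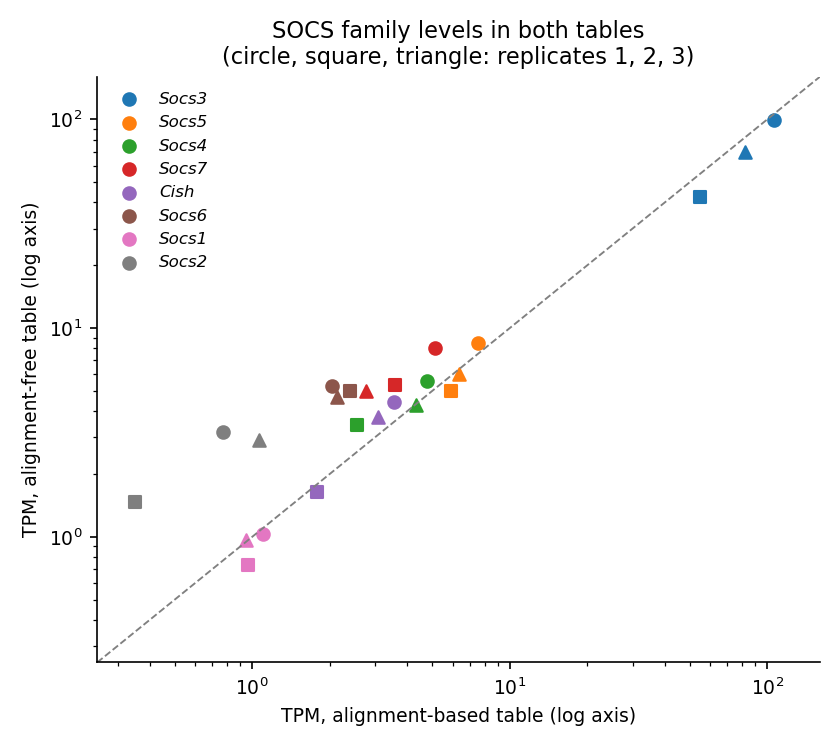
TPM of each SOCS gene in the alignment-free table against its TPM in the alignment-based table, both on log axes, with 1 point per library and a dashed line of equal values. Socs2 and Socs6 lie above the line in all 3 libraries, with mean log2 ratios of 1.70 and 1.15, and Socs3 lies just under it at -0.23.

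The transcript tables assigned these levels to annotated isoforms, and unannotated intron RNA has no row in them. Where an isoform covers an intron of another, its reads and those of unspliced RNA cannot be told apart there. Cish, Socs5 and Socs7 each had an isoform not annotated as protein coding with a mean share of over 20% in both tables. Short stretches across the points where the leading isoforms part are shown first for Cish and Socs5, and for Socs1, whose split varied between libraries. Each line gives 15 bases before the point in lower case and the 15 bases that follow in capitals, 5′ to 3′ on the transcribed strand, from the M21 transcript sequences on mm10.
Cish-204: cctttgcgtacagggGGTGGTACTGGGGTT
Cish-202: cctttgcgtacagggGTAAGCTCAGTTTTT
Socs5-201: gctggcgccgtggagCTCTTCTAATCAATG
Socs5-202: gctggcgccgtggagCCTCTGAAGATAAAC
Socs1-201: gcgtcctgccgccagCGCAGCCCCGGACGC
Socs1-202: gcgtcctgccgccagATGAGCCCACCGAGG
In Cish-204, a protein-coding isoform, the base at 107297034 is joined to 107300368 across an intron of 3333 bases. In Cish-202, a processed transcript, the exon runs on from 107297034 to 107297035, so its capitals are the first bases of that intron. Socs5-201 and Socs5-202 leave the same exon end at 87120808 and continue at 87133622 and 87121062. Socs1-201 and Socs1-202 leave 10785431 and continue at 10784921 and 10785041, so Socs1-202 holds 120 bases that are intron in Socs1-201.

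Cish-202 was assigned most of the Cish signal. It took 82.5%, 75.4% and 73.5% of Cish TPM in replicates 1, 2 and 3 of the alignment-based table (77.1% ± 4.7, SD, n = 3), from 181, 137 and 215 expected counts. Cish-204, which encodes the protein, took 20.5% ± 5.3 from 21.8, 17.9 and 43.4 counts. Of the 4697 bases of Cish-202, 2993 lie in introns of Cish-204 and 36.3% are shared with its exons. In those introns reads of Cish-202 and of unspliced Cish RNA cannot be told apart. In the alignment-free table Cish-202 took 67.4% ± 7.4 and Cish-204 17.1% ± 3.9. Cish-205, a processed transcript of 371 bases, took 13.1% ± 11.4 there from at most 4.0 counts. All Cish isoforms without a coding annotation came to 80.5% ± 5.5 in that table. Over 7517 expressed protein-coding genes with at least 1 such isoform, the median of that share was 47.1% in the alignment-based table, with quartiles at 27.4% and 65.3%, and 56.1% in the alignment-free table, with quartiles at 36.2% and 74.0%. The Cish share lay above the upper quartile in both.

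Socs5 was split between 2 isoforms. The processed transcript Socs5-202 took 44.8%, 37.4% and 34.0% of Socs5 TPM in replicates 1, 2 and 3 (38.7% ± 5.5, SD, n = 3), and 1768 of its 2019 bases lie in introns of the coding isoform Socs5-201. In those introns reads of Socs5-202 and of unspliced Socs5 RNA cannot be told apart. Socs5-201 took 60.4% ± 7.0. In the alignment-free table the shares were 45.0% ± 5.0 and 52.6% ± 9.1. These shares lie between the quartiles over all genes.

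Socs3 came almost wholly from 1 coding isoform. Socs3-201 took 99.8% ± 0.3 of its TPM in the alignment-based table (SD, n = 3) and 98.1% ± 1.1 in the alignment-free table. Socs4 was similar, with Socs4-201 at 100% in the alignment-based table and 83.1% ± 18.6 in the alignment-free one. The short coding isoform Socs4-202 took 16.9% ± 18.6 there, from only 4.3, 15.8 and 0 counts in replicates 1, 2 and 3. All 538 bases of Socs4-202 are shared with Socs4-201.

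Both Socs1 isoforms are annotated as protein coding, and the split between them was not stable. Socs1-202 took 100% of Socs1 TPM in replicate 1, 0% in replicate 2 and 18.9% in replicate 3 of the alignment-based table, and Socs1-201 the rest. In the alignment-free table Socs1-202 took 100%, 91.5% and 53.4%. With 41 to 56 counts over the whole gene and few bases beyond these 120 to tell the isoforms apart, the leading isoform of Socs1 could not be determined at this depth.

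Most of the excess of Socs2 counts in the alignment-free table sat in 1 isoform outside its coding exons. Socs2-206, annotated as a retained intron, spans chr10:95387667-95392967, downstream of the coding isoforms Socs2-201 and Socs2-208, and shares no base with Socs2-208. It had 0, 2.4 and 3.0 counts in replicates 1, 2 and 3 of the alignment-based table and 69.9, 102 and 91.8 in the alignment-free table, where it took 46.2% ± 13.6 of Socs2 TPM (SD, n = 3). The processed transcript Socs2-212 took 12.6% ± 7.4 and the coding isoform Socs2-214 15.4% ± 5.3 in that table, both being at 0 in the other. In the alignment-based table Socs2-208, a coding isoform of 497 bases, led with 54.5% ± 17.3 from only 1.65, 0.76 and 4.27 counts, and it was at 0 in the alignment-free table. Socs2-201 took 37.4% ± 12.0. Socs2-201 had nearly the same counts in both tables, 9.2, 7.0 and 10.7 in the alignment-based and 8.3, 7.9 and 8.5 in the alignment-free one.

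In Socs6 the excess was spread over coding and other isoforms. Socs6-204, a processed transcript of 8 exons whose span reaches from 88668695 to 88894339, had 2.1, 4.1 and 4.1 counts in replicates 1, 2 and 3 of the alignment-based table and 53.5, 69.9 and 85.5 in the alignment-free table. It led there with 35.0% ± 8.7 of Socs6 TPM (SD, n = 3), and 16.5% of its bases are shared with the coding isoform Socs6-201. The coding isoform Socs6-203 went from 0, 44.6 and 58.2 counts in the alignment-based table to 40.0, 111 and 107 in the alignment-free one. In the alignment-based table the coding isoforms Socs6-201, Socs6-203 and Socs6-202 took 37.3% ± 15.1, 27.0% ± 25.1 and 19.3% ± 10.1. In the alignment-free table Socs6-203 took 23.4% ± 6.3, Socs6-201 15.7% ± 4.6 and Socs6-202 none.

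In Socs7 a short isoform shaped the TPM. Socs7-202, a processed transcript of 506 bases, took 51.1%, 23.5% and 9.8% of Socs7 TPM in replicates 1, 2 and 3 of the alignment-based table from only 10.6, 5.0 and 1.6 counts. The coding isoform Socs7-201, of 7015 bases, held 236, 425 and 358 counts. The gene's effective length, by which counts are divided, was accordingly 3477, 5235 and 6149 bases. So Socs7 TPM was highest in replicate 1, while its log2 CPM, which uses no length, was lowest there. In the alignment-free table Socs7-202 took 58.3% ± 7.4 and Socs7-201 41.7% ± 7.4 (SD, n = 3).

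**Figure D3:**
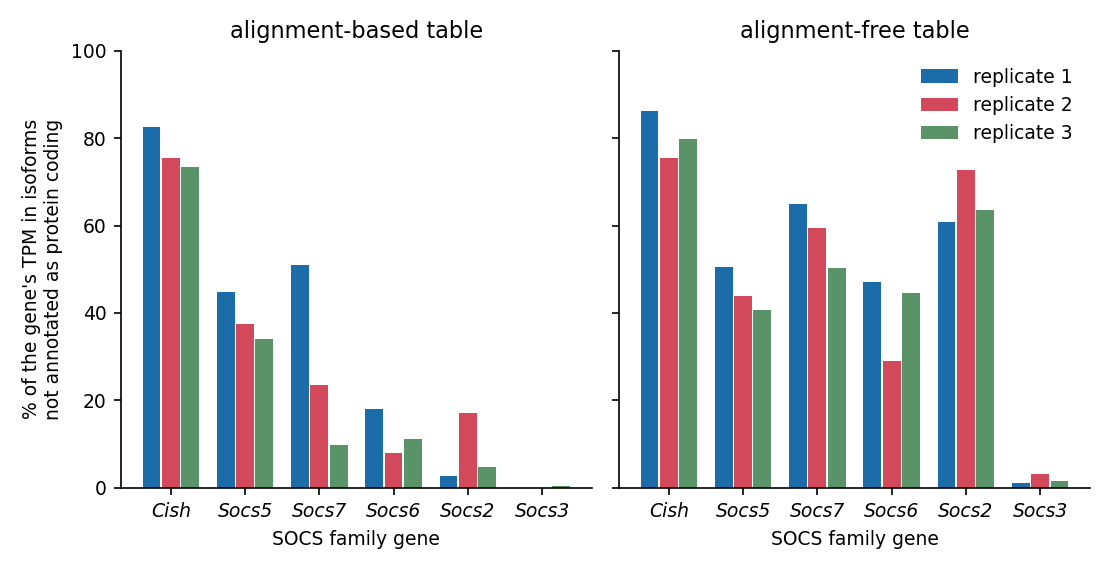
Share of each gene's TPM in isoforms not annotated as protein coding, in percent, by library, in the alignment-based (left) and the alignment-free table (right). Socs1 and Socs4 have no such isoform and are not drawn. Cish is above 73% in every library of both tables, and Socs3 is under 4%. The bars of every gene drawn except Cish are higher in the alignment-free table in all 3 libraries.

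The gene spans also set the members apart. Exons of any isoform covered 95% of the Cish span, 88.2% of Socs1 and 72.8% of Socs3. The corresponding shares were 35.9% for Socs4, 30.0% for Socs2, 21.3% for Socs5, 20.2% for Socs7 and 4.33% for Socs6. The median over 8765 expressed protein-coding genes was 18.7%, with quartiles at 10.1% and 33.7%.

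Between replicates, Cish, Socs4 and Socs3 had the largest SDs in log2 CPM, and all 3 were low in replicate 2. Spread was measured as log2 CPM, counts scaled for library size by edgeR with TMM, and all 8 members passed the count filter, as did 12931 genes in all. Socs3 was at 7.99, 7.35 and 7.88 log2 CPM in replicates 1, 2 and 3. Cish was at 3.92, 3.22 and 3.92 log2 CPM, and Socs4 at 5.04, 4.46 and 5.15. In each of these genes replicates 1 and 3 lay close together and replicate 2 below them, by -0.39 from the mean of the 3 libraries for Socs3, -0.47 for Cish and -0.42 for Socs4.

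The SD between libraries was 0.40 for Cish, 0.37 for Socs4 and 0.34 for Socs3. It was 0.23 for Socs2 and 0.20 for Socs7. Socs5, Socs6 and Socs1 had SDs of 0.09, 0.04 and 0.03. That of Socs6 is smaller than the counting error of its 125 to 171 counts, and that of Socs1 than the error of its 41 to 56 counts. On log2(TPM + 0.1), which also carries changes in effective length, Socs2 had the largest SD, 0.70, followed by Cish at 0.50, Socs3 at 0.48, Socs4 at 0.47 and Socs7 at 0.44. Socs5, Socs6 and Socs1 were at 0.17, 0.11 and 0.11 on that scale. In log2 CPM the median SD over the members was 0.22 and that over all 12931 genes 0.27. In all, 4 of 8 members were lowest in replicate 2, against 38.3% of all expressed genes, and 3 of 8 were lowest in replicate 1, against 37.9% of all. Without replicate 2 the SD of Cish in log2 CPM was 0.0031 and that of Socs3 0.086.

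Replicate 2 was the library made from the smallest amount of RNA, 250 ng, and input and library cannot be told apart. Cytokines that signal through JAKs were low in it too, with a median deviation of -0.48 and 7 of 9 expressed genes lowest there. The macrophage markers had a median deviation of 0.13 in the same library, and 0 of 10 were lowest in it. The part of these differences in the SOCS values was not tested.

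**Figure D4:**
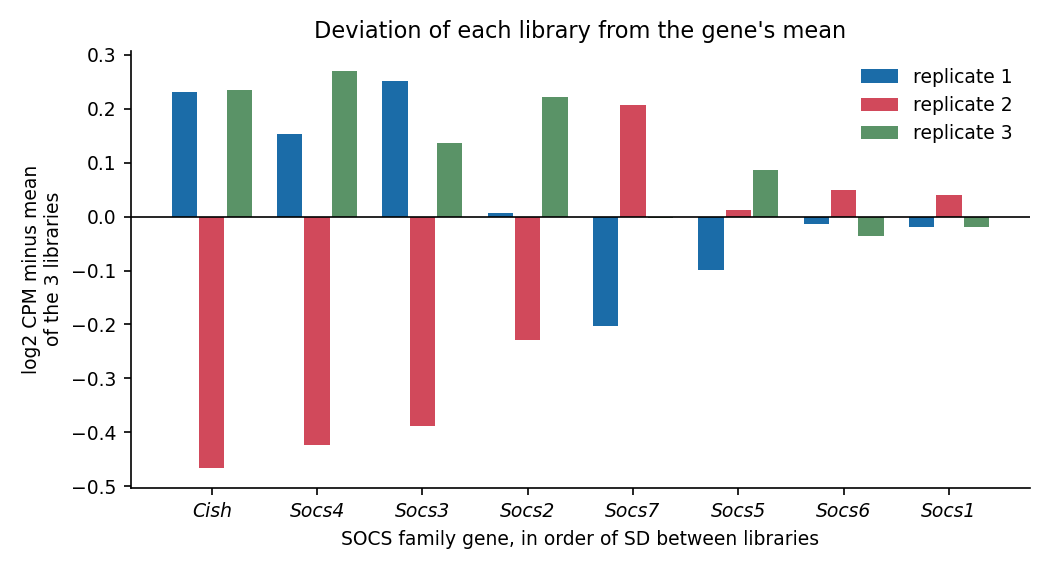
Deviation of each library's log2 CPM from the gene's mean over the 3 libraries, with genes in order of their SD. Cish, Socs4 and Socs3 are below their mean in replicate 2 by 0.39 to 0.47 and above it in replicates 1 and 3, and the bars of Socs5, Socs6 and Socs1 stay within 0.10 of 0.

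The genes most like Cish, Socs1 and Socs3 across the 3 libraries were found by the Euclidean distance between deviations of log2(TPM + 0.1), over 8764 other expressed protein-coding genes. The nearest to Socs3 were Hdac1, Sgms1 and Sfr1, at distances of 0.0037, 0.0054 and 0.011. Those nearest to Cish were Sept11, Eva1b and Osgin2, at 0.012, 0.014 and 0.015. Those nearest to Socs1 were Mysm1, Eif4g3 and Zfc3h1, at 0.0041, 0.0086 and 0.0091. With 3 libraries such patterns are common, since 145 genes lay within 0.1 of Socs3, 88 within 0.1 of Cish and 529 within 0.1 of Socs1.

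Promoters were searched for 3 short motifs, and those of Socs3, Cish and Socs4, which were low in the same library, are shown. The windows, from 250 bases before to 50 after the start of transcription, are from RefSeq on GRCm38.p6, and 4 of 8 members matched, Cish, Socs1, Socs3 and Socs4. Socs2, also lowest in replicate 2, had no window, and the Socs1 window is not shown. Any link between motifs and the differences between libraries was not tested. The STAT motif TTCNNNGAA, the core GGNNTTTCC of an NF-κB site and the AP-1 motif TGANTCA were sought on both strands. STAT matches are in capitals, and the Socs4 window held none of the motifs. Cish is shown only around its matches, and the other windows end at the last base before the start, 5′ to 3′ on the gene's strand.
Cish, chr9:107296653-107296682: ccagttTTCCTGGAAagTTCTTGGAAatct
Socs3, chr11:117969367-117969616: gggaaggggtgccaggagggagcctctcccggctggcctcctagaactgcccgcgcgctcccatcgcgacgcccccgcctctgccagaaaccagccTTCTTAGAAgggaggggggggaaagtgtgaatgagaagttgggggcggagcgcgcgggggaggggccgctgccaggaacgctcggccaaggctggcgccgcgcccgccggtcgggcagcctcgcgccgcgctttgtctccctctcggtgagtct
Socs4, chr14:47276670-47276919: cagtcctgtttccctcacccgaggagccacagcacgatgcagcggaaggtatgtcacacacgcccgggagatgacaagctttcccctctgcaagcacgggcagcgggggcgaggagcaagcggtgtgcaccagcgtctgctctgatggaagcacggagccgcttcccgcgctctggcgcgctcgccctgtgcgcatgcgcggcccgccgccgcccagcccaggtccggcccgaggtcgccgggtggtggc
Cish held 2 STAT matches, beginning 0 and 11 bases after the RefSeq start. It also held 1 NF-κB core match 30 bases after that start, beyond the stretch shown. In M21 the isoforms Cish-204 and Cish-202 begin at 107296710 and 107296907, downstream of this whole window, so these matches lie upstream of both. The coding isoform Cish-201 begins at 107296026, before the window, so the matches lie within its first exon. It took 2.4% of Cish TPM in each table. Socs3 held 1 STAT match, beginning 154 bases before the RefSeq start. In M21 the leading isoform Socs3-201 begins at 117969186, downstream of this whole window, so the match lies further from its first base. No motif overlapped another. The letters of the 3 motifs were not found in the Socs1 and Socs4 windows, which says nothing about binding there or elsewhere. Of 32851 RefSeq promoters of the same length, 8.30% held the STAT motif, 5.82% the NF-κB core and 7.81% the AP-1 motif. Binding was not measured, so a match is a description of the sequence only.

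Of 6 genes for partners that build the SOCS-box E3 ligase, 0 were called higher and 2 lower, with a median of -0.84 on the log2 scale relative to the reference gene. Beside this and each list below, 15.1% of all genes tested were called higher and 52.5% lower. Eloc, which encodes elongin C, had the highest mean, at 8.60, 6.76 and 10.1 TPM in replicates 1, 2 and 3. Rbx1, a RING subunit, was next at 7.95, 4.87 and 8.55 TPM. Rnf7, the RING subunit usually paired with Cul5, was lowest at 0.99, 0.53 and 0.78 TPM and was called lower. Among 26 other proteins with a SOCS box, 2 were called higher and 20 lower, with a median of -4.02. Wsb1 was at 400, 260 and 349 TPM and Wsb2 at 49.9, 58.3 and 51.5 TPM, both above the reference gene in every library, so Wsb1 exceeded Socs3 in each. At the low end 5 genes, Asb9, Asb10, Asb11, Asb12 and Asb16, had 0 counts in all libraries, which allows a share of up to 2.36e-05% of the counts in replicate 1.

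Janus kinases and STATs are what SOCS proteins restrain. Of 4 Janus kinases, 2 were called higher and 0 lower, with a median of 1.48 relative to the reference gene. Jak1 was at 47.0, 35.7 and 43.9 TPM and Tyk2 at 32.7, 30.8 and 32.0 TPM in replicates 1, 2 and 3. Jak3 at 10.6, 13.1 and 12.2 TPM and Jak2 at 13.7, 8.80 and 12.4 TPM received neither call. Of 6 STATs described here, 3 were called higher and 1 lower, with a median of 2.14 on the log2 scale relative to the reference gene. Stat3, the factor downstream of gp130 and the IL-10 receptor, was at 92.9, 89.6 and 65.1 TPM, and Stat6, which serves IL-4, at 82.5, 84.1 and 80.7 TPM.

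Stat2, used by type I interferon receptors, was also called higher, at 73.0, 67.0 and 62.4 TPM in replicates 1, 2 and 3. Stat5a at 13.3, 13.9 and 14.9 TPM and Stat5b at 6.39, 6.74 and 5.57 TPM received neither call, and Stat4 at 2.30, 0.79 and 1.31 TPM was called lower. So the mean level of Socs3, 81.1 TPM, lay among those of Stat2, Stat3 and Stat6, while the other 7 SOCS members had a lower mean TPM than Stat5a.

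Of 11 other inhibitors of the pathway, 3 were called higher and 0 lower, with a median of 0.47. These were the ubiquitin ligase gene Cbl, at 65.4, 60.9 and 57.1 TPM in replicates 1, 2 and 3, and the phosphatase genes Ptpn1, at 42.4, 21.7 and 36.3 TPM, and Ptpn2, at 23.6, 16.4 and 18.3 TPM. Pias3, which encodes a STAT3 inhibitor, was lowest at 2.47, 3.09 and 2.90 TPM. Among all inhibitors listed, the 8 SOCS members included, only Socs3, Cbl, Ptpn1 and Ptpn2 were called higher.

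Of 33 receptors that signal through JAKs, 13 were called higher and 15 lower, with a median of -0.25. Over all genes tested, 15.1% were called higher and 52.5% lower. Csf2ra, for GM-CSF, was at 93.1, 135 and 109 TPM in replicates 1, 2 and 3, and Il10ra at 95.3, 76.1 and 94.5 TPM. Il5ra had 0 counts in every library. Il6st, which encodes gp130, the receptor chain Socs3 is known to bind, was at 21.5, 20.2 and 16.5 TPM and was called higher. It is named here outside the rule for list genes, chosen after its values were seen.

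Of 24 cytokines, 2 were called higher and 16 lower, with a median of -3.94, which like the other list medians falls on genes with counts. Il10 was at 91.2, 36.6 and 70.5 TPM and Il15 at 40.9, 17.9 and 34.4 TPM in replicates 1, 2 and 3, both lowest in replicate 2, as Socs3 was. At the low end 7 genes, Ifng, Il2, Il11, Il21, Gh, Prl and Epo, had 0 counts in all libraries. Of 8 genes of the TLR4 receptor and its adaptors, with a median of 0.30, 1 was called higher, Irak1 at 27.2, 30.3 and 20.9 TPM, and 1 lower, Tirap at 0.48, 0.30 and 0.29 TPM. Traf6, the second in mean level, was at 17.9, 11.7 and 16.1 TPM.

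Of 12 other known STAT target genes, 8 were called higher and 1 lower, with a median of 2.58 on the log2 scale relative to the reference gene. Irf1 was at 788, 446 and 432 TPM and Icam1 at 644, 295 and 581 TPM in replicates 1, 2 and 3. Cebpd was lowest at 0.82, 0.49 and 0.50 TPM and was called lower. Irf1 and Icam1 are also well-known NF-κB targets, so the list is not specific to STATs. Socs3 was within the range of the 8 called higher, while Cish, Socs1 and Socs2, which are known STAT targets too, were not called higher.

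**Figure D5:**
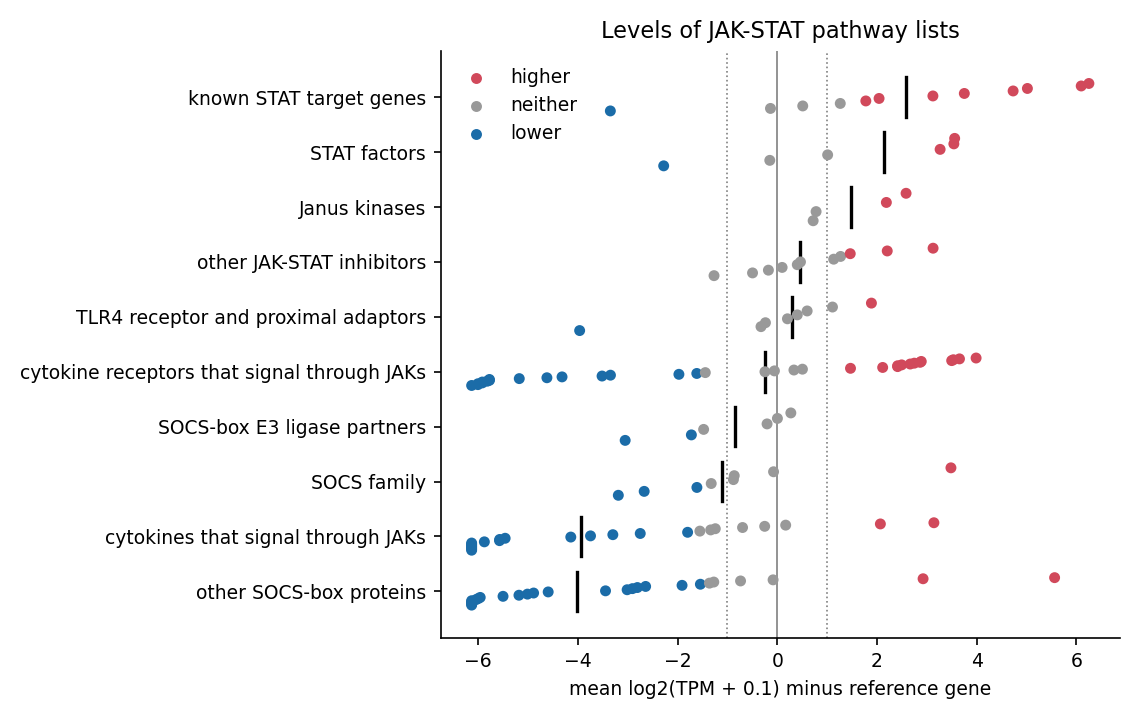
Mean level of each gene of the SOCS family and of 9 pathway lists relative to the reference gene, as log2(TPM + 0.1), with the list median as a black bar and dotted lines at 2-fold. Points are coloured by call; the 6 STATs have a median of 2.14, the SOCS family a median of -1.10, and 1 SOCS gene, Socs3, lies to the right of the dotted lines.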

How the data were processed

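Each library came with 1 gene table and 2 transcript tables on mm10 with annotation M21, per the deposited notes. Which programs made them is not given in the sources used here. Expected counts, TPM and FPKM deposited by the authors in the alignment-based tables divide reads between matching transcripts; estimated counts and TPM in the alignment-free table were summed per gene. Rows naming no gene (1.26%, 0.223% and 0.200% of counts in replicates 1, 2 and 3) were left out of tests. Molecular identifiers are not named, so intervals cover counting error only.

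Levels were tested with limma 3.58.1 (treat, 2-fold band, trended prior variance, two-sided, Benjamini-Hochberg over all 18445 genes that averaged 0.1 TPM or more or belonged to a list) on log2(TPM + 0.1), which understates differences of low genes. Spread used edgeR 4.0.16 on rounded expected counts (TMM, filterByExpr with a minimum count of 10, prior count 2), in R 4.3.3. The level test was checked on simulated data. Alternatives covered pseudocount, filters, reference genes, band, table, scaling (size factors of DESeq2 1.42.0) and leaving out each library. Members and lists were chosen with earlier results of these data known. Named were all members, from each list the 2 highest and the lowest by mean TPM, every JAK and STAT (1 list gene is not reported here), the 3 genes nearest to Cish, Socs1 and Socs3, and each leading isoform and each with at least 10% of its gene's TPM in either table. With 1 group of 3, libraries were not tested as outliers.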

Additional observations from a re-analysis of the deposited data

How the results depend on the processing

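No paired analysis was possible because the series has 1 group. Socs3 alone was called higher in every alternative run. The number of members called lower, 3, became 6 with reference genes of at least 5 TPM and also with no fold band, Cish, Socs4 and Socs7 being added in both, and was 2 to 3 when each library was left out. Socs6 lost its call with a pseudocount of 1 (adjusted p 0.0590 by limma's treat test), with reference genes of at least 0.1 TPM, with a 4-fold band, in the alignment-free table (adjusted p 1 in these 3) and without replicate 3. Socs1 and Socs2 were called lower in every alternative that could test them; with only genes of at least 1 TPM, Socs2 was not tested. Members with no call moved above the reference gene with reference genes of at least 0.1 TPM, Socs5 to 0.99, Socs4 to 0.20 and Socs7 to 0.18, and Socs5 to 0.018 on FPKM. The median SD of the members, 0.22 in log2 CPM, was 0.46 on log2(TPM + 0.1), and 0.082 to 0.23 when each library was left out, the lowest value being without replicate 2. Neighbours in the order of levels reversed in the alignment-free table for Socs4 and Socs7 (-0.46), Cish and Socs6 (-0.71) and Socs1 and Socs2 (-1.32), and for Socs4 and Socs7 without replicate 3 (-0.29, and 0.26 at the highest, without replicate 2). The cause of these changes was not tested. Depth limits Socs2, with 12 to 18 counts a library, and the isoform split of Socs1.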
